A study of Mus musculus with 1504 samples.

Results

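Tbx1, Tbx2, Tbx3, Tbx4 and Tbx5 are T-box transcription factors, and their levels were followed across single cells sorted by fluorescent reporter from the adult mouse lung. The members were the rows with these 5 symbols in the deposited table of read counts, and all 5 were found among the 21947 genes measured in 1504 cells. Each had its own place among the cell types. Tbx2, Tbx4 and Tbx5 were highest in pericyte-like cells, Tbx2 had a further high level in aerocyte-like capillary cells, Tbx3 was highest in aerocyte-like and general capillary-like endothelium, and most reads of Tbx1 were in lymphatic-like endothelium.

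T-box proteins bind DNA through the conserved T-box domain and act in the patterning of the heart, limbs and lung. Tbx2 and Tbx3 act mainly as transcriptional repressors, whereas Tbx1, Tbx4 and Tbx5 act mainly as activators. In the developing mouse lung, Tbx4 and Tbx5 act in the mesenchyme upstream of Fgf10 in airway branching, Tbx2 and Tbx3 keep mesenchymal cells proliferating, and Tbx1, known for its part in the pharyngeal arches and outflow tract, is also needed for lymphatic vessels.

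The genes form 2 linked pairs and 1 single locus. By the GENCODE vM21 annotation of GRCm38 (mm10), the build named in the submitters' processing notes, Tbx2 lies at chr11:85832551-85841948 on the plus strand, and Tbx4 follows it on the same strand at chr11:85886422-85916097, a gap of 44474 bases. Tbx3 lies at chr5:119670669-119684724, also on the plus strand, and Tbx5 follows at chr5:119832668-119885219 after a gap of 147944 bases. Tbx1 stands alone on the minus strand at chr16:18580979-18590671. Merged exons span 2.674 kb for Tbx1, 3.626 kb for Tbx2, 5.205 kb for Tbx3, 3.401 kb for Tbx4 and 3.942 kb for Tbx5. Tbx3 overlaps the antisense gene Tbx3os1 by 697 bases of gene span and 0 bases of exon. Whether the counting used strand is not given in the sources used here, so intronic reads of that pair cannot be told apart.

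Promoter windows of the RefSeq table (GRCm38.p6) were matched for Tbx1 and Tbx4, with their highest summed levels in lymphatic-like and in pericyte-like cells, and the 250 bases before each start are shown for that contrast. Capitals mark the T-box half-site AGGTGT, searched on both strands (its reverse complement is ACACCT).
Tbx1: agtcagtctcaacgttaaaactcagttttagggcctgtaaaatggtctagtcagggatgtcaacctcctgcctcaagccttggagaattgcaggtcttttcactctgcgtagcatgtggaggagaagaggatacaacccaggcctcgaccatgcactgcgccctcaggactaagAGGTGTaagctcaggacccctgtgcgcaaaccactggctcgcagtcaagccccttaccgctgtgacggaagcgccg
Tbx4: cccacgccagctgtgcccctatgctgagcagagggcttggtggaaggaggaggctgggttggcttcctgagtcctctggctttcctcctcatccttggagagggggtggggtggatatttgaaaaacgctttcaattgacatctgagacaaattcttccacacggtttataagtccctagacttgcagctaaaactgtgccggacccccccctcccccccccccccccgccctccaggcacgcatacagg
The Tbx1 window is chr16:18590672-18590921, read on the minus strand, and lies outside the GENCODE Tbx1 gene. It is 54.4% GC and holds 1 half-site, which starts 76 bases before the transcription start. A further Tbx1 window of the table, chr16:18588900-18589149, lies in an intron and holds none. The Tbx4 window is chr11:85896515-85896764 on the plus strand, inside the GENCODE Tbx4 gene and outside its exons, with 58.4% GC and no match. Among 32851 such windows 11.8% hold the half-site, and their median GC content is 52.4%. A match of these letters is a description and says nothing of binding. Tbx2, Tbx3 and Tbx5 are named only.

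Cells came from the lungs of adult C57BL/6 reporter mice, given as 12 to 15 weeks old in the sample labels and 10 to 19 weeks old in the design text, and were sorted by fluorescence into 384-well plates for SMART-seq2, a full-length cDNA method without molecular identifiers. The labels give 374 cells as Pdgfrb(BAC)eGFP, 361 as Pdgfrb(BAC)eGFP with NG2dsRed, and 769 as Cldn5(BAC)eGFP. Each transgene carries a fluorescent protein under regulatory sequence of the named gene, so it marks every cell in which that sequence is active: Pdgfrb and NG2 (Cspg4) mark mural cells and also fibroblasts, and Cldn5 marks endothelium. All groups share the strain and carry a reporter, and there is no diseased or treated group. The table's columns fall into 6 sets, Mural1 (128 cells), Mural2 (233), Mural3 (374) and EC1, EC2 and EC3 (769 together). Mural1 with Mural2 hold as many cells as the label with NG2dsRed and Mural3 as many as the label without it, but the column names give no reporter, and the sets are used under their own names.

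Depth ran between 100229 and 609242 reads per cell with a median of 240178, and set medians were 289214, 235362 and 367962 reads in Mural1, Mural2 and Mural3, against 197767, 197314 and 201706 in EC1, EC2 and EC3. Pdgfrb had 1661, 1047 and 374 CPM (a gene's reads divided by all reads of the summed cells and scaled by 1000000) in Mural1, Mural2 and Mural3 and at most 3.37 CPM in an EC set, and Cldn5 had 35.9, 64.8 and 9.42 CPM in the mural sets against 13219, 9272 and 10884 CPM in the EC sets. Cspg4 had 543 and 405 CPM in Mural1 and Mural2, 42.6 CPM in Mural3 and 56.3 to 106 CPM in the EC sets. No animal, plate or date is named in the labels, so whether the sets come from different animals is unknown. Each population was taken as 1 sample, no test between them was run, and no p-value is given. The 95% intervals below cover counting error only, and reads without molecular identifiers are not independent molecules, so they are too narrow even for that.

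For the clustering 10976 genes were held out, most of them drawn at random. They included the T-box genes and the genes of the pathway lists used below, except list genes that were also markers. Neighbouring genes of the loci were held out only where drawn at random. Cells were clustered into 12 clusters named from marker lists. This gave 70 pericyte-like, 68 smooth muscle-like, 391 fibroblast-like, 43 chondrocyte- or perichondrial-like, 76 aerocyte-like, 659 general capillary-like and 21 lymphatic-like cells. The remaining 176 cells, in 2 clusters rich in epithelial or leukocyte markers, are called mixed and held 38.2% of Mural2. Aerocytes are the large capillary cells of gas exchange, and general capillary cells the smaller ones that renew the bed. The general capillary-like class joins 2 clusters, 1 led by interferon-induced genes (Ifi44, Gbp4, Igtp) and 1 by Hey1, Ptprb and Edn1. The arterial and venous marker lists were not used for naming, so no cluster could take those names. Where such cells lie was not tested. The pericyte list summed to 36354 CPM in pericyte-like cells, 3408 in smooth muscle-like, 324 in fibroblast-like and 146 in general capillary-like cells. Endothelial markers summed to 634 CPM in pericyte-like cells, with Emcn at 0, against 26914 CPM in general capillary-like cells. Of all cells, 85 held at least 5 endothelial and at least 5 mural markers, 65 of them in the mixed class, 0 pericyte-like, 6 smooth muscle-like, 7 fibroblast-like, 1 aerocyte-like and 0 lymphatic-like. Median depth was 146872 reads in pericyte-like cells, 270840 in smooth muscle-like, 371070 in fibroblast-like, 331822 in aerocyte-like, 191844 in general capillary-like and 263367 in lymphatic-like cells. Shares of cells with a read are therefore given after each cell was thinned to 50000 reads.

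Tbx2, a repressor that holds back cell cycle inhibitors in other tissues, had its highest level in pericyte-like cells. Its summed reads gave 1413 CPM there (95% interval 1392 to 1435), and 100% of the 70 cells had a read. Single cells spanned 35.6 to 4574 CPM with a median of 1433 CPM. Every pericyte-like cell therefore had Tbx2, at levels that differed by 2 orders of magnitude. Aerocyte-like cells came next with 584 CPM (574 to 593) and a read in 94.7% of cells, and smooth muscle-like cells had 122 CPM (117 to 127) and 64.7%. Fibroblast-like cells had 62.6 CPM and 40.2%, mixed cells 51.4 CPM, chondrocyte-like cells 20.8 CPM and general capillary-like cells 10.9 CPM with 4.10% of cells. In lymphatic-like cells 1 read was found. No neighbours in this order had overlapping intervals.

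By column set, pericyte-like cells had 1102 CPM in Mural1 and 1635 CPM in Mural2. Aerocyte-like cells had 559, 532 and 624 CPM in EC1, EC2 and EC3, against 13.3, 14.4 and 4.46 CPM in the general capillary-like cells of the same sets. The aerocyte-like value was thus the higher in each EC set, and how often this holds for other genes was not computed. Smooth muscle-like cells had 95.9 CPM in Mural1 and 134 CPM in Mural2, while fibroblast-like cells had 30.6, 86.6 and 63.0 CPM in Mural1, Mural2 and Mural3. In Mural1 and Mural2, 1 fibroblast-like cell each held 31.9% and 33.1% of the Tbx2 reads. Without the highest cell of each set the levels were 21.8 (19.3 to 24.5), 59.6 (55.9 to 63.6) and 61.3 CPM (59.8 to 62.7). Mural1 was then still lower by more than counting error, while Mural2 and Mural3 did not differ beyond it.

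**Figure D1:**
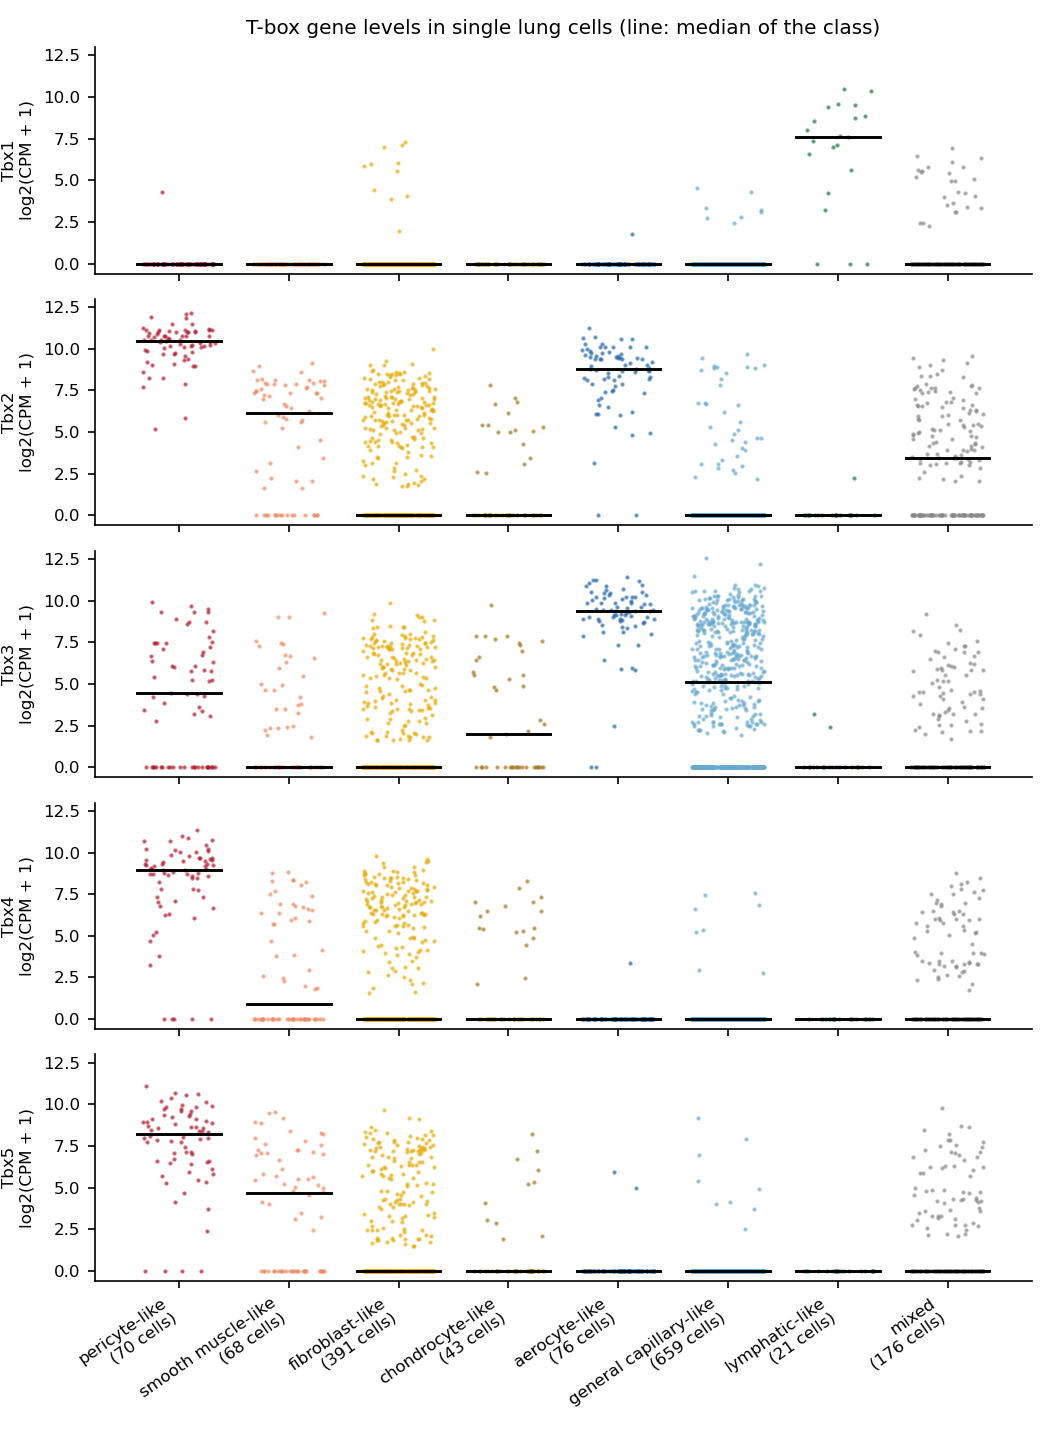
Each point is 1 cell and shows log2(CPM + 1) of Tbx1 to Tbx5 (one panel per gene) in each marker-defined cell class, with a black line at the class median. Tbx2 has a read in every pericyte-like cell and in nearly all aerocyte-like cells, and Tbx1 in 18 of 21 lymphatic-like cells before thinning.

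Tbx3, the closest relative of Tbx2 and likewise a repressor, was highest in the capillary classes, was also found in every mural and stromal class, and was nearly missing from lymphatic-like cells. Aerocyte-like cells had 879 CPM (867 to 891) and a read in 96.1% of cells, and general capillary-like cells 244 CPM (241 to 247) and 55.5%. Within the general capillary-like class single cells reached 5950 CPM around a median of 33.9 CPM, so the level there was uneven. Pericyte-like cells had 125 CPM (119 to 131; 52.9% of cells), chondrocyte-like cells 61.9 CPM, fibroblast-like cells 45.4 CPM, smooth muscle-like cells 34.1 CPM and mixed cells 27.0 CPM. Lymphatic-like cells had 3 reads in all, 0.53 CPM (0.11 to 1.54).

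By set, aerocyte-like cells had 869, 883 and 881 CPM of Tbx3 in EC1, EC2 and EC3. General capillary-like cells had 334, 226 and 174 CPM in the same sets, lower than the aerocyte-like cells in each. The aerocyte-like values lay within a few percent of one another, while the general capillary-like values did not. Pericyte-like cells had 134 CPM in Mural1 and 118 CPM in Mural2, and fibroblast-like cells 17.6, 49.5 and 48.1 CPM in Mural1, Mural2 and Mural3.

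Tbx4, a regulator of lung mesenchyme and hindlimb, had 576 CPM (563 to 590) in pericyte-like cells with a read in 90.0% of them and a per-cell median of 490 CPM. Smooth muscle-like cells had 66.0 CPM (62.5 to 69.7; 42.6% of cells) and fibroblast-like cells 64.0 CPM (62.7 to 65.3; 34.5%). These neighbours did not differ beyond counting error. Chondrocyte-like cells had 37.8 CPM and mixed cells 26.1 CPM. Endothelium had little: 1.04 CPM in general capillary-like cells, 4 reads in aerocyte-like cells and 0 reads in lymphatic-like cells, where the floor of 3 reads over the class is 0.53 CPM. Pericyte-like cells had 615 CPM in Mural1 and 549 CPM in Mural2, and fibroblast-like cells 48.7, 66.3 and 65.5 CPM in Mural1, Mural2 and Mural3. Every mural and stromal class thus had more Tbx4 than every endothelial class.

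Tbx5, known for its role in the heart and forelimb and a partner of Tbx4 in the lung mesenchyme, had 418 CPM (406 to 429) in pericyte-like cells with a read in 90.0% of cells and a per-cell median of 298 CPM. Smooth muscle-like cells followed with 100.3 CPM (95.9 to 104.8; 52.9% of cells), then fibroblast-like cells with 35.9 CPM (35.0 to 36.9; 25.6%), mixed cells with 24.8 CPM and chondrocyte-like cells with 19.8 CPM. Pericyte-like cells had 341 CPM in Mural1 and 472 CPM in Mural2. Smooth muscle-like cells had 135 CPM in Mural1 and 89.1 CPM in Mural2, but 1 of the 16 Mural1 cells held 39.6% of the reads, and the others had 88.4 CPM (80.2 to 97.2). General capillary-like cells had 1.55 CPM and aerocyte-like cells 1.45 CPM, with overlapping intervals, and lymphatic-like cells had 0 reads. In each of these capillary classes 1 cell held most of the reads, and the others had 0.63 and 0.46 CPM.

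Tbx1 had its highest level in lymphatic-like cells, with 368.5 CPM (353 to 385), a read in 76.2% of the 21 cells and a per-cell median of 195 CPM. Of its 2600 reads in all cells, 2092 (80.5%) were in this class, although before thinning 27 mixed, 11 fibroblast-like and 8 general capillary-like cells also had a read. Mixed cells had 5.56 CPM and fibroblast-like cells 1.64 CPM, while general capillary-like cells had 13 reads (0.10 CPM), pericyte-like cells 2 and aerocyte-like cells 1. Smooth muscle-like and chondrocyte-like cells had 0 reads. By set, lymphatic-like cells had 105 CPM in EC1 (4 of 6 cells with a read after thinning), 509 CPM in EC2 (5 of 6) and 451 CPM in EC3 (7 of 9). Tbx1 was therefore present in the lymphatic-like cells of each EC set, at a lower level in EC1. In EC2 1 cell held 50.6% of the Tbx1 reads, and without the highest cell of each set the levels were 72.1, 312 and 333 CPM in EC1, EC2 and EC3.

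**Figure D2:**
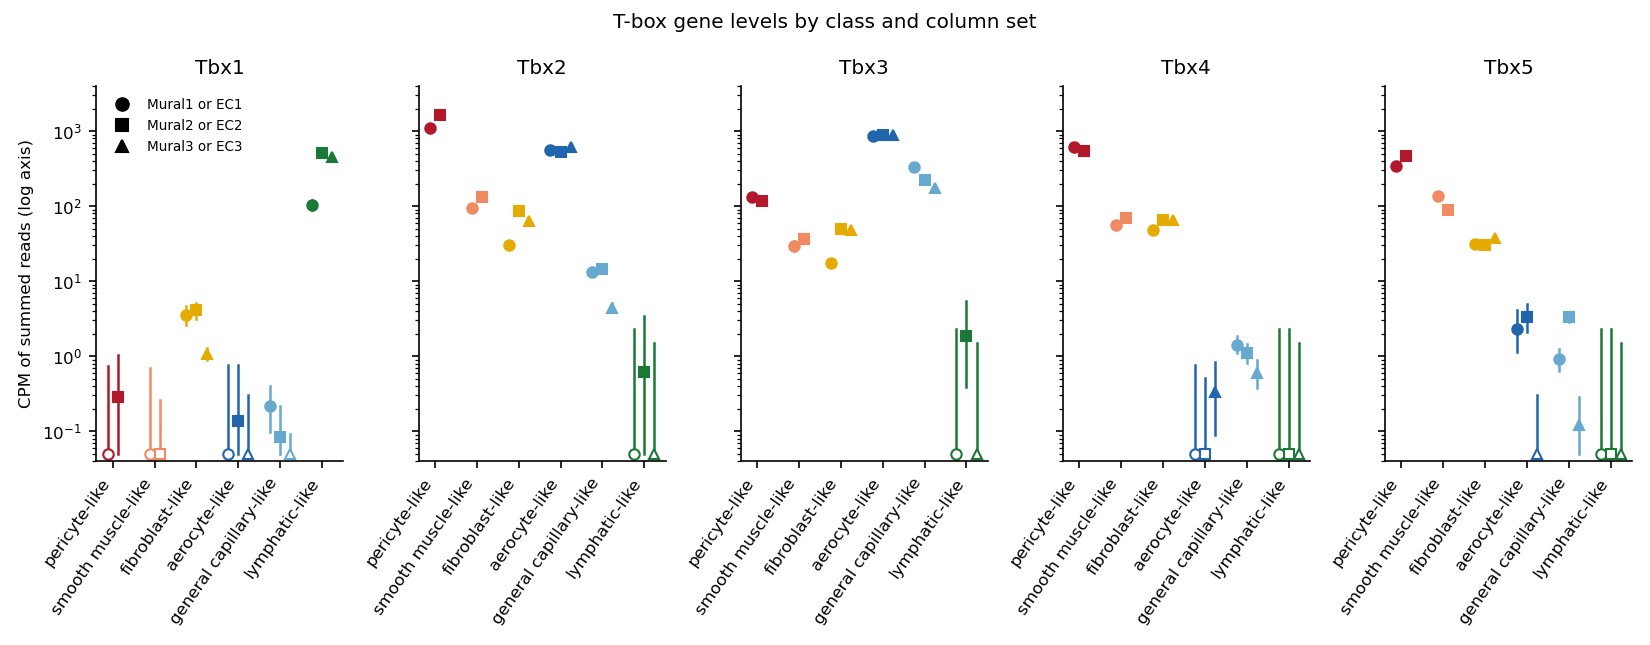
Summed CPM (log axis) of each T-box gene in each cell class within each column set, with 95% counting intervals; circles are Mural1 or EC1, squares Mural2 or EC2, triangles Mural3 or EC3, and open symbols at the bottom mark 0 reads. Tbx4 and Tbx5 lie at 341 CPM or more in the pericyte-like cells of Mural1 and Mural2, and Tbx2 at 532 CPM or more in the aerocyte-like cells of all 3 EC sets.

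Compared per kilobase of exon, Tbx2 was the most abundant of the 5 in pericyte-like cells, with 390 CPM per kb, followed by Tbx4 with 169, Tbx5 with 106 and Tbx3 with 24.0 CPM per kb. In aerocyte-like cells Tbx3 (169 CPM per kb) and Tbx2 (161 CPM per kb) were at similar levels. General capillary-like cells had 46.9 CPM per kb of Tbx3 and under 10 of every other member, and lymphatic-like cells had 138 CPM per kb of Tbx1. As shares of all reads of a gene, pericyte-like cells held 36.6% for Tbx2, 36.2% for Tbx4 and 36.6% for Tbx5, although they were 70 of 1504 cells. Fibroblast-like cells, with 391 cells, held 19.1%, 47.4% and 37.1% of the same genes. For Tbx3, general capillary-like cells held 49.9% of reads and aerocyte-like cells 33.3%.

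**Figure D3:**
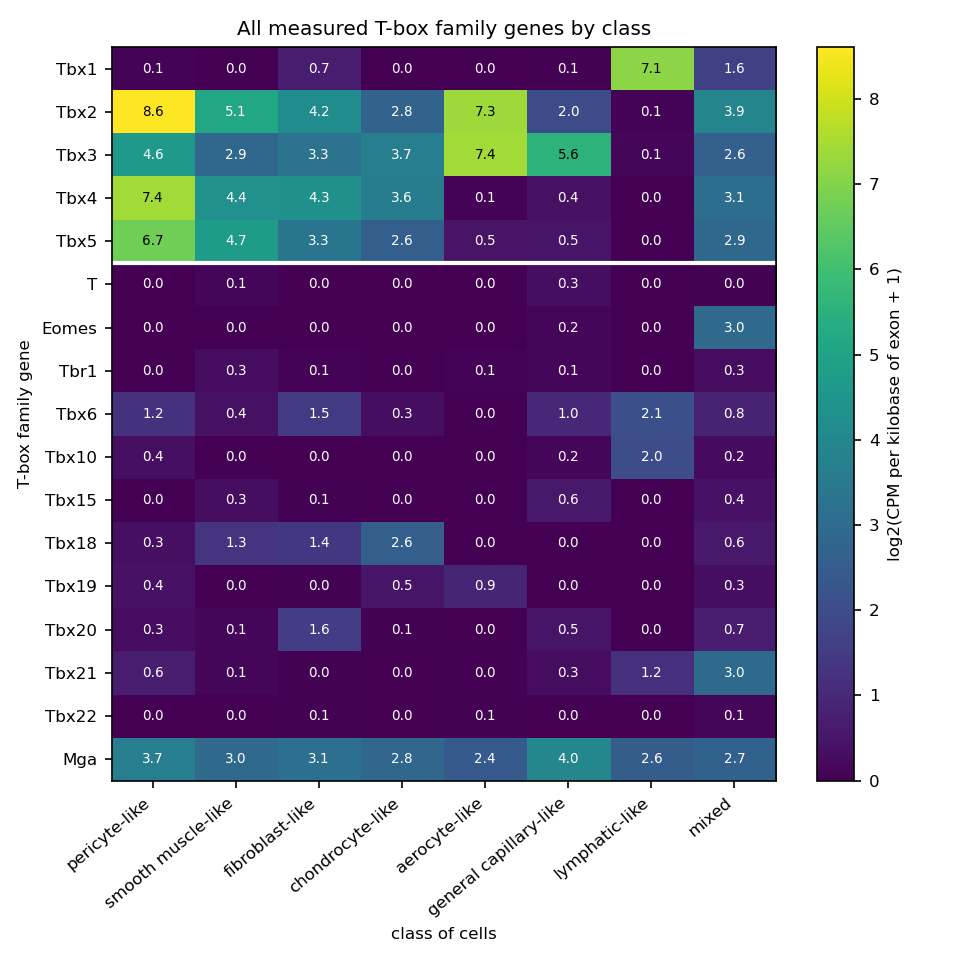
Heat map of log2(CPM per kb of exon + 1) for the 5 genes and the other measured T-box family genes (rows) in each cell class (columns). The brightest fields are Tbx2 in pericyte-like cells (390 CPM per kb), Tbx4 in pericyte-like cells, Tbx3 and Tbx2 in aerocyte-like cells and Tbx1 in lymphatic-like cells (138 CPM per kb).

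Single cells carried the members in combinations. After thinning, 36 of 70 pericyte-like cells had a read of 4 members and 22 of 3, and 58 of 70 had both Tbx4 and Tbx5. Among 68 smooth muscle-like cells 5 had 4 members and 8 had none, and 21 had both Tbx4 and Tbx5. Fibroblast-like cells were more varied, with 117 of 391 having no member and 17 having 4. In endothelium the combinations were simpler. Aerocyte-like cells had both Tbx2 and Tbx3 in 70 of 76 cells (92.1%), whereas general capillary-like cells had both in 18 of 659, had exactly 1 member in 352 and none in 279. Lymphatic-like cells had 1 member in 17 of 21. In fibroblast-like cells 59.2% of those with Tbx2 also had Tbx4, against 17.9% of those without Tbx2. For Tbx3 these shares were 43.3% and 27.4%.

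**Figure D4:**
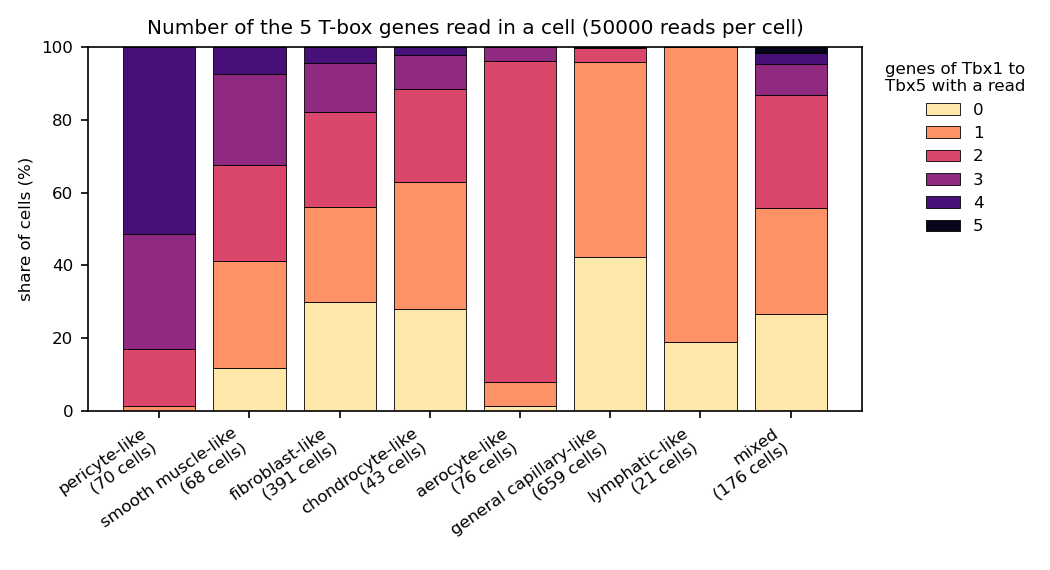
Stacked bars give the percentage of cells in each class with reads of 0 to 5 of the T-box genes, after thinning each cell to 50000 reads. Pericyte-like cells mostly have 3 or 4, aerocyte-like cells 2 (67 of 76) and lymphatic-like cells 1 (17 of 21).

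Whole column sets were compared first, since they need no cell naming. A gene was taken as past the size rule where the ratio of CPM was at least 4-fold and the higher side had at least 10 CPM and a read in at least 10% of cells. In Mural1 with Mural2 against the EC sets, Tbx4 had 116 CPM against 0.86 CPM, with 125 and 110 CPM in Mural1 and Mural2 and 1.21, 0.90 and 0.50 CPM in EC1, EC2 and EC3. Tbx5 had 93.6 CPM against 1.45 CPM, a 64.6-fold higher level (56.7 to 73.8), from 84.3 and 99.4 CPM in the mural sets and 0.99, 3.18 and 0.09 CPM in the EC sets. Without EC2 the Tbx5 ratio was 7.52 on the log2 scale, against 6.01 with it, and without the EC cell with most reads of the gene the ratios were 7.03 for Tbx5 and 7.73 for Tbx4, against 7.08 for Tbx4 with it. Tbx3 had 47.5 CPM against 325 CPM, 6.85-fold lower (6.64 to 7.06). Tbx2, with 184 and 279 CPM in Mural1 and Mural2 and 65.2, 79.1 and 137 CPM in the EC sets, did not pass at 2.55-fold. Tbx1 had 2.97 CPM against 12.9 CPM, 4.35-fold lower (3.85 to 4.94), and did not pass because only 2.73% of EC cells had a read. Thus 3 of 5 members passed, against 8.43% of all genes, 2 of them higher (5.99% of all genes) and 1 lower (2.44%).

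Mural3, compared with the same EC cells, gave the same 3 calls. Tbx5 had 33.6 CPM against 1.45 CPM, 23.1-fold higher (20.3 to 26.5), with a log2 ratio of 6.04 without EC2 and 5.55 without the EC cell with most reads, against 4.53. Tbx3 had 45.1 CPM against 325 CPM, 7.20-fold lower (7.02 to 7.40), and Tbx4 had 58.9 CPM against 0.86 CPM, with a log2 ratio of 6.75 without the EC cell with most reads, against 6.10. All genes passed at 8.12%, with 4.71% higher and 3.41% lower. Between the mural sets, Mural3 had 56.6 CPM of Tbx2 against 243 CPM in Mural1 with Mural2, 4.29-fold lower (4.18 to 4.40), while 2.5% of all genes passed, 0.314% as higher and 2.18% as lower. Without Mural2 the ratio was -1.70 on the log2 scale, against -2.10 with it, and no longer passed, as was the case with TMM (-1.73) and median-ratio (-1.70) scaling. Tbx4, Tbx5 and Tbx3 were 1.97-, 2.79- and 1.05-fold lower in Mural3 and did not pass. Mural3 held 0 pericyte-like cells, whereas Mural1 and Mural2 held 27 and 43. A sum over a whole set does not by itself separate fewer cells of a type from less RNA per cell, so values by class are given beside it. Of the 23416 Tbx2 reads of Mural1 with Mural2, 17040 were in pericyte-like cells. The part of cell types in the difference between sets was not tested. Within the fibroblast-like class, the summed reads of Mural3 had 1.03 times the Tbx2 of Mural1 with Mural2 (0.98 to 1.08), and the ratios were 1.37 for Tbx3, 1.12 for Tbx4 and 1.21 for Tbx5. None of these passed, in a comparison where 0.547% of held-out genes did (0.255% higher, 0.292% lower). In the largest fibroblast-like cluster alone the Tbx2 ratio was 1.72. Over all fibroblast-like cells it was 1.36 without the Mural1 or Mural2 cell with most Tbx2 reads.

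Between cell classes the held-out genes, 10976 in number and not used in clustering, served as the background. Pericyte-like against smooth muscle-like cells, both from Mural1 and Mural2 (70 and 67 cells), had 1413 CPM against 124 CPM of Tbx2, 11.4-fold higher (10.9 to 11.9). Tbx4 had 576 CPM against 66.8 CPM, 8.62-fold higher (8.12 to 9.16). Tbx5 had 418 CPM against 102 CPM, 4.11-fold higher (3.90 to 4.33), close to the 4-fold limit, and missed it under other scalings, without the wells of mixed markers and without its highest cell (1.75 to 1.96 on the log2 scale, against 2.04). Tbx3 was 3.62-fold higher and did not pass, though it did without its highest smooth muscle-like cell (4.33-fold). So 3 of 5 members were called, against 8.57% of held-out genes, all 3 of them higher and none lower (4.14% and 4.44% of held-out genes). The smooth muscle marker list summed to 1634 CPM in pericyte-like cells and 59776 CPM in smooth muscle-like cells.

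The same pericyte-like cells were set against the 84 fibroblast-like cells of Mural1 and Mural2. Tbx2 had 1413 CPM against 61.2 CPM, 23.1-fold higher (22.0 to 24.3), Tbx5 418 CPM against 30.7 CPM, 13.6-fold higher (12.7 to 14.6), and Tbx4 576 CPM against 58.3 CPM, 9.88-fold higher (9.37 to 10.4). These 3 passed, with 8.44% of held-out genes passing, 4.19% as higher and 4.25% as lower, and Tbx3 at 3.57-fold did not. Leaving out Mural2 moved the Tbx2 log2 ratio to 5.17, against 4.53. Without the fibroblast-like cell with most Tbx2 reads it was 4.93. The comparison was repeated with the largest of the 3 fibroblast-like clusters, cluster 6, alone. This left out cluster 10 (3 of these 84 cells) and cluster 3 (3 cells of Mural1 and 4 of Mural2). Cluster 10 has 1 pericyte marker, Lamc3, among its 10 leading genes. Its cells had on average a read of 15.0% of the pericyte markers, against 76.1% of the fibroblast markers. The pericyte share was 11.1% in cluster 6 and 16.7% in cluster 3. Clusters 10 and 3 both had more Tbx2 and Tbx4 than cluster 6, as given below. The log2 ratios were then 6.07 for Tbx2, 4.42 for Tbx4 and 4.02 for Tbx5, all past the rule. Smooth muscle-like against fibroblast-like cells had 0 of 5 members past the rule, with 6.65% of held-out genes past it (3.28% higher, 3.37% lower). There the ratios were 3.30-fold for Tbx5, 2.02-fold for Tbx2 and 1.15-fold for Tbx4. Against cluster 6 alone, Tbx2 passed at 5.87-fold, and Tbx5 at 3.96-fold and Tbx4 at 2.49-fold did not. Chondrocyte-like against fibroblast-like cells likewise had 0 of 5, against 5.79% (2.47% higher, 3.33% lower). Its Tbx2 ratio was 0.340, and 0.987 against cluster 6 alone.

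In the capillary bed, aerocyte-like against general capillary-like cells of the EC sets (76 and 657 cells) had 584 CPM against 11.0 CPM of Tbx2, 53.3-fold higher (50.5 to 56.3). Tbx3 had 879 CPM against 245 CPM, 3.59-fold higher (3.53 to 3.66), and did not pass the 4-fold limit, though it did under other scalings and without EC1. Thus 1 of 5 members was called, with 2.57% of held-out genes called, 0.893% as higher and 1.68% as lower. The 12 pericyte markers summed to 253 CPM in aerocyte-like cells and 146 CPM in general capillary-like cells, and Higd1b, Ndufa4l2 and Postn were at 0 in the aerocyte-like cells.

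Lymphatic-like against the same general capillary-like cells (21 and 657) had 368.5 CPM against 0.10 CPM of Tbx1, a 3686-fold higher level (2151 to 6934). Tbx3 had 0.53 CPM against 245 CPM, 463-fold lower (158 to 2246) on 3 reads. Tbx2 had 1 read against 11.0 CPM and did not pass, and Tbx4 and Tbx5 were under 10 CPM on both sides. Here 2 of 5 members passed, against 7.57% of held-out genes, with 3.57% higher and 4% lower. Lymphatic markers summed to 13943 CPM in lymphatic-like cells, 787 in aerocyte-like and 635 in general capillary-like cells. Finally, pericyte-like cells against general capillary-like cells were 551-fold higher for Tbx4 (465 to 658), 269-fold for Tbx5 (233 to 311) and 129-fold for Tbx2 (122 to 136), with 125 CPM against 245 CPM of Tbx3, which did not pass. Held-out genes passed at 7.39%, with 4.3% higher and 3.09% lower. Without EC2 the Tbx5 log2 ratio was 9.65, against 8.07. In general capillary-like cells 1 cell held 59.4% of all Tbx5 reads and 1 cell 37.5% of all Tbx4 reads, and leaving that cell out gave 661-fold for Tbx5 and 880-fold for Tbx4. These comparisons share pericyte-like or general capillary-like cells and are not independent of one another.

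**Figure D5:**
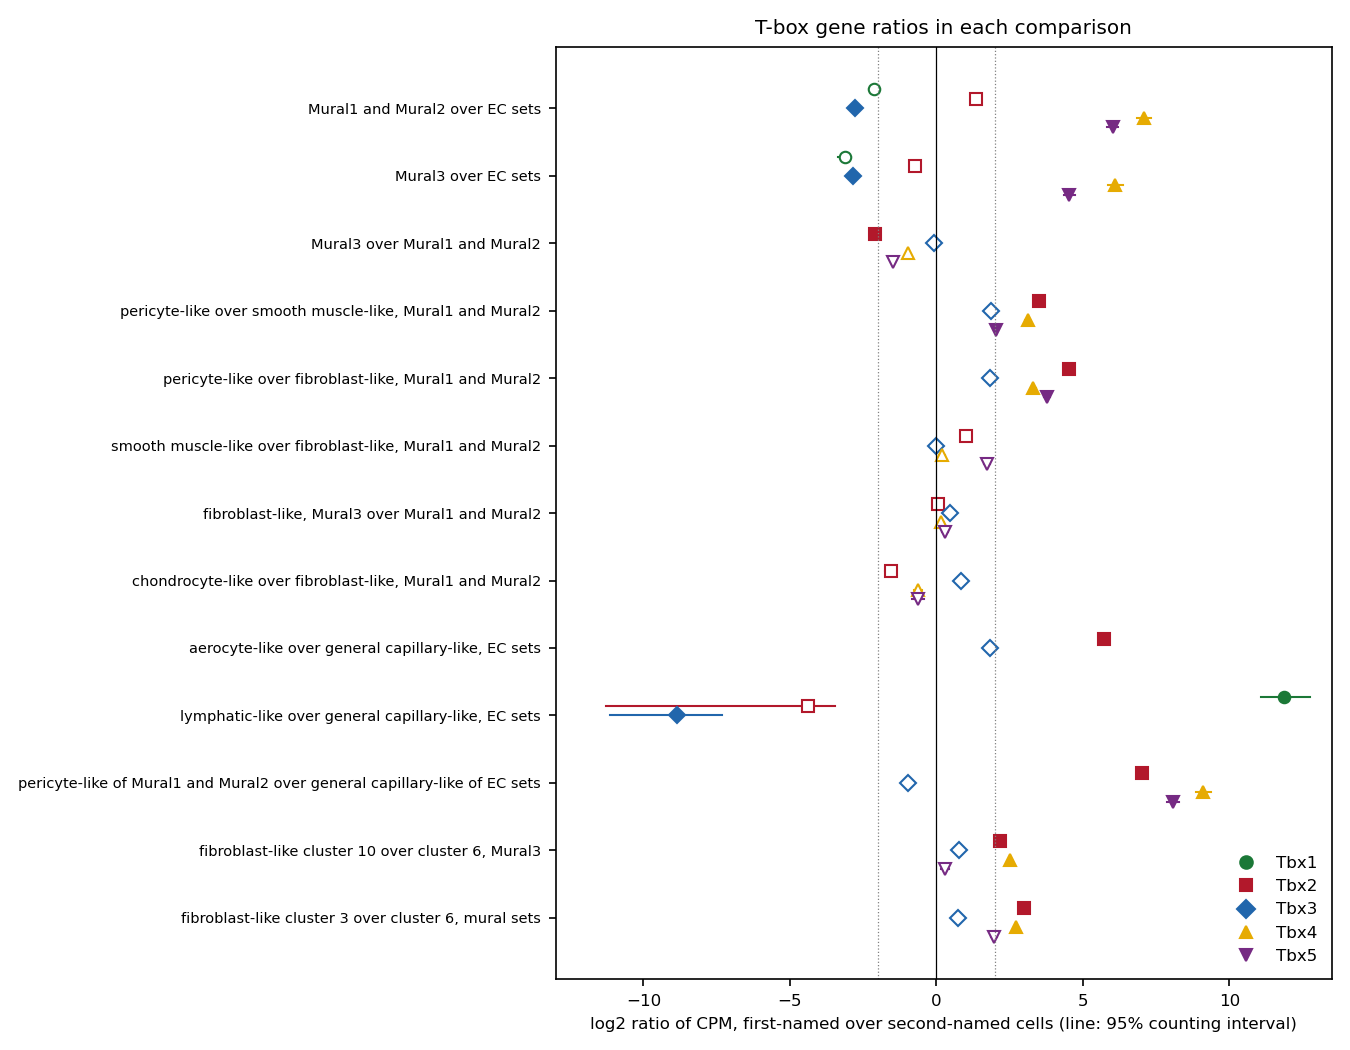
Log2 ratios of CPM for each T-box gene in each comparison, with 95% counting intervals; filled points are past the size rule, open points are not, dotted lines mark 4-fold, and genes under 10 CPM on both sides are left out. Tbx4 and Tbx5 lie right of the dotted line in all comparisons of mural sets or pericyte-like cells with endothelium, and Tbx1 lies there in lymphatic-like cells; Tbx2 in lymphatic-like cells (1 read) is drawn at 3 reads.

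Fibroblast-like cells were not uniform for Tbx2 and Tbx4. Cluster 10 (41 cells, 38 of them in Mural3), led by Bmp7, Dner and Lrat, had 187 CPM of Tbx2 and a read in 92.7% of cells. Cluster 3 (22 cells), led by Col28a1, Slc36a2 and Nrcam, had 263 CPM and 90.9%. Cluster 6 (328 cells), led by Scara5, Sfrp4 and Ccl11, had 33.1 CPM and 30.2%. Tbx4 followed the same order of high and low, with 209 CPM in cluster 10, 226 CPM in cluster 3 and 34.4 CPM in cluster 6. Tbx5 did not: it had 38.6 CPM in cluster 10, 117 CPM in cluster 3 and 30.1 CPM in cluster 6. Tbx3 had 67.1, 69.1 and 41.0 CPM in clusters 10, 3 and 6. The smaller clusters thus had higher summed levels of both Tbx2 and Tbx4 than cluster 6.

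Within Mural3, cluster 10 against cluster 6 had 163 CPM against 36.3 CPM of Tbx2, 4.49-fold higher (4.26 to 4.74), and 207 CPM against 36.5 CPM of Tbx4, 5.67-fold higher (5.40 to 5.96). Tbx3 at 1.70-fold and Tbx5 at 1.21-fold did not pass, so 2 of 5 members were called against 2.41% of held-out genes (1.14% as higher, 1.27% as lower). Cluster 3 against cluster 6 over the mural sets was 7.96-fold higher for Tbx2 (7.54 to 8.39) and 6.58-fold for Tbx4 (6.22 to 6.95). Tbx5 at 3.88-fold and Tbx3 at 1.69-fold did not pass the rule, which 4.16% of held-out genes passed (1.81% as higher, 2.35% as lower). Without the cluster 6 cell with most Tbx5 reads, Tbx5 passed at 4.15-fold. Inside cluster 6 itself, Tbx4 was found in 46.5% of the cells with Tbx2, against 16.6% of the cells without it. Pairs from different loci also occurred together. Tbx3 was found in 44.4% of the cells with Tbx2, against 25.8% without it. Tbx4 was found in 35.0% of the cells with Tbx3, against 21.3% without it. Tbx5 was found in 26.2% of the cells with Tbx3, its linked neighbour, against 21.3% without it. These differences in shares were not tested. The part of differences in depth and of detection limits in this co-occurrence was not tested.

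The 12 other measured T-box genes included none that passed in any comparison of sets or classes. Mga, which pairs a T-box with a second DNA-binding domain, had 61.0 to 205 CPM in every class. Eomes (25.1 CPM) and Tbx21 (17.2 CPM), regulators of lymphocytes, were highest in the mixed class, where leukocyte markers summed to 21305 CPM, and without the cell with most reads they had 9.44 and 7.39 CPM. Tbx20 had 18.5 CPM in fibroblast-like cells and Tbx18 23.7 CPM in chondrocyte-like cells, the second in 4.65% of cells and at 11.1 CPM without the highest of them. Tbx6 (5.99 CPM) and Tbx10 (5.46 CPM) were highest in lymphatic-like cells, each in 1 cell. The long noncoding RNA Tbx3os2, near Tbx3, had 6.09 CPM in aerocyte-like and 2.65 CPM in pericyte-like cells.

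Likeness of pattern was described by Pearson's r of log2(CPM + 1) over the 12 clusters, which share libraries' depth and plates and are few, among 13445 genes with at least 10 CPM in a cluster. The named genes most like Tbx4 were Plekhh2 (0.973), Adcy2 (0.973), Hoxb6 (0.965), Tbx5 (0.964) and C1rl (0.958). For Tbx5 they were Tbx4 (0.964), Src (0.958), Hoxb2 (0.956), Pdgfrb (0.955), the gene behind the mural reporters, and Arhgef17 (0.953). These lists name each other's gene. Tbx3 was most like Foxf1 (0.965), Apbb2 (0.952), Slc39a6 (0.95), Mbnl2 (0.945) and Cep85l (0.945). Tbx2 was most like Chst2 (0.928), Tsr3 (0.898), P4htm (0.885), Med7 (0.883) and Gdpgp1 (0.881), weaker values than for the other members. Tbx1 was most like Fmr1nb (0.974), Cckbr (0.959), Pcsk4 (0.949), Ttc9 (0.94) and Sin3b (0.939). It had 368.5 CPM in cluster 12 (21 cells) and at most 9.09 CPM in any other, so 1 small cluster weighs heavily on these values. Among the genes named in these lists, Adcy2, Hoxb6, Src, Pdgfrb, Arhgef17, Mbnl2 and Gdpgp1 were not held out of the clustering. Between linked neighbours r was 0.637 for Tbx2 with Tbx4 and 0.034 for Tbx3 with Tbx5. Between genes of different loci it was 0.709 for Tbx2 with Tbx5, above both linked pairs. It was 0.556 for the paralogs Tbx2 and Tbx3, and -0.023 for Tbx3 with Tbx4.

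Neighbouring genes of the loci, 10 of which were measured, had none past the rule in Mural1 with Mural2, or in Mural3, against the EC sets. Of all genes, 8.43% and 8.12% passed there. Of the 3 that were held out of the clustering, Rbm19, which follows Tbx5 and acts in ribosome biogenesis, passed as higher in pericyte-like cells. It had 18.9 CPM there against 2.37 CPM in smooth muscle-like cells, 7.98-fold higher (5.79 to 11.2), and 2.53 CPM in fibroblast-like cells. Of held-out genes, 4.14% and 4.19% were higher in these comparisons. Rbm19 also had 18.0 CPM in aerocyte-like, 18.3 CPM in lymphatic-like and 13.8 CPM in general capillary-like cells. Bcas3, which precedes Tbx2, had 148 CPM in cluster 10 against 35.3 CPM in cluster 6 of Mural3, 4.19-fold higher (3.96 to 4.43). There 1.14% of held-out genes were higher. None of the 3 passed in the other comparisons of classes or clusters.

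Genes reported elsewhere as T-box targets, in mouse or human work, were read from a list of 22. Beside each count of a list stand the shares of all genes, or of held-out genes, that were higher and lower in the same comparison, and the list's median log2 ratio against that of the same genes. In Mural1 with Mural2 against the EC sets, 5 were higher and 3 lower (5.99% and 2.44% of all genes, median 1.11, against 0.01). In pericyte-like against smooth muscle-like cells 1 of the 20 held out was higher and 5 were lower (4.14% and 4.44% of held-out genes, median -0.31, against 0.27). Bmp4 had 244 CPM against 5.31 CPM, 46.0-fold higher (37.8 to 56.5), and Gja1, a gap junction gene repressed by Tbx2 and Tbx3 in the mouse heart, had 0.66 CPM against 127 CPM, 191-fold lower (96.6 to 442). Aldh1a2 was first by fold among the lower genes, here and against fibroblast-like cells. Over all sets it had 0.25 CPM in pericyte-like, 125 CPM in smooth muscle-like and 114 CPM in fibroblast-like cells. Against fibroblast-like cells, pericyte-like cells had 0 of 20 higher and 9 lower (4.19% and 4.25% of held-out genes, median -1.91, against 0.54). Among these Gja1 had 0.66 CPM against 80.7 CPM, 122-fold lower (61.6 to 282), and the WNT inhibitors Shisa3 and Frzb, repressed by Tbx2 in the mouse lung mesenchyme, had 0 reads in pericyte-like cells against 66.2 and 52.5 CPM, at least 266- and 211-fold lower at a floor of 3 reads over the class. Fgf10, the branching signal downstream of Tbx4 and Tbx5 in the embryonic lung, had 2.65 CPM in pericyte-like cells against 33.7 CPM in fibroblast-like cells, 12.7-fold lower (8.93 to 18.6). Its level was thus low in the class with the most Tbx4 and Tbx5.

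In aerocyte-like against general capillary-like cells, 1 of 20 targets was higher and 1 lower (0.893% and 1.68% of held-out genes, median -2.01, against -0.63). Cdkn1a, the cell cycle inhibitor p21 that Tbx2 and Tbx3 repress in cultured cells, had 440 CPM against 31.9 CPM, 13.8-fold higher (13.3 to 14.3), and Bmp4 had 6.34 CPM against 102 CPM, 16.1-fold lower (13.7 to 19.0). In lymphatic-like against general capillary-like cells 1 was higher and 2 were lower (3.57% and 4% of held-out genes, median -1.64, against -0.16). Gja1 had 1375 CPM against 13.9 CPM, 99.3-fold higher (94.3 to 105), and Smad7 had 0 reads against 282 CPM, at least 533-fold lower at a floor of 3 reads over the class. In cluster 10 against cluster 6, 0 were higher and 4 lower (1.14% and 1.27% of held-out genes, median -1.60, against 0.16), with Gja1 at 4.49 CPM against 77.9 CPM, 17.3-fold lower (13.51 to 22.64). In cluster 3 against cluster 6, 3 were higher and 5 lower (1.81% and 2.35% of held-out genes, median 0.31, against 0.27), and Gja1 had 307 CPM against 68.7 CPM, 4.47-fold higher (4.27 to 4.68). Gja1 therefore differed in opposite directions in the 2 fibroblast-like clusters that had the higher Tbx2 levels.

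The hedgehog pathway, an inducer of T-box genes in embryonic tissues, was read from 13 genes. In Mural1 with Mural2 against the EC sets 8 were higher and 1 lower (5.99% and 2.44% of all genes, median 3.69, against 0.01). Gli1, a transcriptional effector and readout of the pathway, had 37.3 CPM against 0.33 CPM, 113-fold higher (86.4 to 151), and the co-receptor Boc had 229 CPM against 6.66 CPM, 34.3-fold higher (32.3 to 36.5). Foxf1, a hedgehog target in lung mesenchyme that is also expressed in lung capillaries, had 79.6 CPM against 565 CPM, 7.10-fold lower (6.93 to 7.26). In pericyte-like against fibroblast-like cells 1 was higher and 7 lower (4.19% and 4.25% of held-out genes, median -3.52, against 0.54). Gli1 had 7.55 CPM against 103 CPM, 13.6-fold lower (11.1 to 17.0), and Foxf1 had 304 CPM against 47.3 CPM, 6.42-fold higher (6.04 to 6.84). Against general capillary-like cells, pericyte-like cells had 3 higher (Boc, Gli3 and Gas1) and 1 lower (4.3% and 3.09% of held-out genes). Pericyte-like against smooth muscle-like cells had 1 higher and 2 lower (4.14% and 4.44% of held-out genes, median -0.90, against 0.27), and aerocyte-like against general capillary-like cells 0 and 0 (0.893% and 1.68% of held-out genes, median -0.66, against -0.63).

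WNT, BMP, FGF and retinoic acid inputs were read from 19 genes, of which 5 were higher and 1 lower in Mural1 with Mural2 against the EC sets (5.99% and 2.44% of all genes, median 0.66, against 0.01). In pericyte-like against smooth muscle-like cells 4 were higher and 2 lower (4.14% and 4.44% of held-out genes, median 0.67, against 0.27). Lef1, a nuclear effector of WNT signals, had 225 CPM against 0.82 CPM, 273-fold higher (168 to 479), and Wnt5a had 101 CPM against 1.08 CPM, 93.1-fold higher (60.6 to 151). In pericyte-like against fibroblast-like cells 2 were higher and 3 lower (4.19% and 4.25% of held-out genes, median -0.17, against 0.54). Lef1 had 225 CPM against 7.07 CPM, 31.9-fold higher (27.7 to 36.9), and Axin2, a common WNT readout, had 50.3 CPM against 5.23 CPM, 9.62-fold higher (8.04 to 11.6). In cluster 10 against cluster 6 of Mural3, 1 was higher and 1 lower (1.14% and 1.27% of held-out genes, median 0.49, against 0.16). In cluster 3 against cluster 6, 3 were higher and 0 lower (1.81% and 2.35% of held-out genes, median 0.27, against 0.27). Axin2 was higher in both, at 27.0 CPM in cluster 10 against 3.59 CPM, 7.51-fold (6.47 to 8.73). In cluster 3 it had 23.5 CPM against 3.42 CPM, 6.88-fold higher (5.76 to 8.19). Aerocyte-like against general capillary-like cells had 0 higher and 2 lower (0.893% and 1.68% of held-out genes, median -1.94, against -0.63), and lymphatic-like cells had 3 higher and 2 lower (3.57% and 4% of held-out genes, median -1.73, against -0.16).

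Partners and corepressors of T-box proteins, 17 genes, had 1 higher and 1 lower in Mural1 with Mural2 against the EC sets (5.99% and 2.44% of all genes, median 0.15, against 0.01). Ripply3, a corepressor that binds Tbx1 in the mouse, was the endothelial exception with 9.73 CPM against 301 CPM, 31.0-fold lower (29.0 to 33.1). In lymphatic-like cells, the class with Tbx1, Ripply3 had 37.5 CPM against 317 CPM in general capillary-like cells, 8.44-fold lower (7.38 to 9.70). The corepressor Tle3 had 71.0 CPM against 4.83 CPM, 14.7-fold higher (12.9 to 16.7). No other gene of the list passed there, with 3.57% of held-out genes higher and 4% lower (median -0.04, against -0.16). Pericyte-like cells had 0 higher and 2 lower against smooth muscle-like cells (4.14% and 4.44% of held-out genes, median 0.32, against 0.27), and 0 higher and 1 lower, Gata6, against fibroblast-like cells (4.19% and 4.25% of held-out genes, median 0.54, against 0.54). Gata5 had 100.4 CPM in cluster 3 against 11.9 CPM in cluster 6, 8.45-fold higher (7.75 to 9.22). No other gene of the list passed there, with 1.81% of held-out genes higher and 2.35% lower (median 0.22, against 0.27).

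Other transcription factors of the lung mesenchyme, 20 genes, had 11 higher and 1 lower in Mural1 with Mural2 against the EC sets (5.99% and 2.44% of all genes, median 5.53, against 0.01), Tbx4 and Tbx5 thus being among many mesenchymal regulators with that difference. In pericyte-like against smooth muscle-like cells 5 were higher and 2 lower (4.14% and 4.44% of held-out genes, median 1.06, against 0.27), with Foxf2 at 583 CPM against 18.6 CPM, 31.4-fold higher (28.2 to 35.0), and Tcf21 at 227 CPM against 12.3 CPM, 18.4-fold higher (16.1 to 21.1). In pericyte-like against fibroblast-like cells 3 were higher and 7 lower (4.19% and 4.25% of held-out genes, median -0.09, against 0.54). Foxf2 had 583 CPM against 30.8 CPM, 19.0-fold higher (17.7 to 20.3), and Heyl, a Notch target, 830 CPM against 172 CPM, 4.82-fold higher (4.66 to 4.99). In cluster 10 against cluster 6 of Mural3, 2 were higher and 2 lower (1.14% and 1.27% of held-out genes, median -0.26, against 0.16). In cluster 3 against cluster 6, 1 was higher and 4 were lower (1.81% and 2.35% of held-out genes, median -0.82, against 0.27). Foxf2 was among the higher in both, at 73.3 CPM in cluster 10 against 10.4 CPM, 7.04-fold (6.44 to 7.69). In cluster 3 it had 105 CPM against 11.3 CPM, 9.36-fold higher (8.58 to 10.2). Ebf1 and Ebf2 were among the lower in both. In aerocyte-like against general capillary-like cells 1 was higher, Meox1 with 148 CPM against 8.60 CPM (17.2-fold, 16.1 to 18.4), and 1 lower, Hoxa5 with 9.28 CPM against 140.2 CPM (15.1-fold, 13.2 to 17.3), beside 0.893% and 1.68% of held-out genes and with a median of -0.89, against -0.63.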

How the data were processed

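Reads were mapped with STAR 2.4.2a and mm10 is the named build, per the submitters' processing notes; the counting tool and its use of strand are not given in the sources used here. The authors deposited whole-number read counts by gene and cell, and a second table rescaled to 500000 reads per cell and rounded by the authors, treated as a score and used only to check the counts. From the deposited counts, the eGFP row was dropped and the reads of a class were summed, which gave CPM with exact Poisson intervals, and ratios with exact conditional intervals. Shares of cells used 1 seeded thinning to 50000 reads. No filter on cells was applied, and wells with markers of more than 1 type were kept and left out in an alternative.

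Clustering (scanpy 1.11.5, igraph 0.11.9, Python 3.11.15; counts scaled to 10000 per cell, 2000 variable genes, 30 components, 15 neighbours, Leiden resolution 1, seed 1) left out 10976 genes in all. These were the members, the list genes that were not markers and a random draw of the other genes that were not markers. Clusters were called mixed where epithelial or leukocyte markers marked them at 50%, and otherwise took the class with the highest marker share of at least 40%. These limits were set after the data were seen. Only the aerocyte, general capillary, lymphatic, pericyte, smooth muscle, fibroblast and chondrocyte lists could give such a class. Cluster 6, named fibroblast-like, had a marker share of 83.0% for the adventitial fibroblast list and 81.1% for the fibroblast list. The members and lists were chosen with earlier results of these data known. Named genes were the 5 members, the other measured T-box genes, up to 4 genes of each list past the size rule, and the 5 most like genes of each member; Fgf10, Foxf1, Foxf2, Axin2 and Heyl were in places named outside that rule, after their values were seen. The scripts were tested on simulated data. Other scalings, minima, folds, thinning, cell weighting, and leaving out sets or cells were tried as alternatives. Single cells are not replicates, and the number of animals is unknown.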

Additional observations from a re-analysis of the deposited data

How the results depend on the processing

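Counts of members past the size rule were recomputed under each alternative; 192 kept within 1.5 times the main count, 14 did not, and none of the called ratios reversed. Mural3 against Mural1 with Mural2 (1 called) gave 0 under TMM factors, under median-ratio factors and without Mural2, and 2 at a fold of 2. Smooth muscle-like against fibroblast-like cells (0) gave 2 at a fold of 2, 1 without minima and 1 with cluster 6 alone. Chondrocyte-like against fibroblast-like cells (0) gave 1 at a fold of 2 and 1 without minima. Aerocyte-like against general capillary-like cells (1) gave 2 under TMM factors, median-ratio factors, a fold of 2, no minima and without EC1. The cause was not tested. Of 363 recomputed called ratios, 8 missed the rule and 12 moved by over 1.5 times; Tbx5 in Mural3 against EC missed a minimum of 50 CPM. On the log2 scale the TMM factor was -0.42 in Mural3 against the EC sets, -0.36 in Mural3 against Mural1 with Mural2, -0.29 in aerocyte-like against general capillary-like cells and 0.48 in pericyte-like against fibroblast-like cells; it is subtracted, so TMM raised every ratio of the first 3 and lowered those of the last by that size. The alternatives with cluster 6 alone, those without the highest cell of the lower side and those on fibroblast-like clusters were chosen after seeing the data. Alternatives that left a side under 20 cells, 6 in all, were not run, including each EC set left out of the lymphatic-like comparison. No paired analysis was possible because no result comes from a test between samples: the labels carry no replicate numbers, and classes of the same set are given side by side in the results. Shares under the limit of a few reads in the 21 lymphatic-like and 43 chondrocyte-like cells were not detectable at this depth.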
